A study of Mus musculus with 6 samples.

Results

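The genes described here encode the enzymes that oxidise and conjugate drugs: the CYP monooxygenases of families 2, 3 and 4 together with Cyp1a2, their electron donor Por, the UDP-glucuronosyltransferases (UGT), the cytosolic sulfotransferases (SULT), the soluble glutathione S-transferases (GST) and the membrane-bound microsomal glutathione S-transferases (MGST). They were chosen by gene name, and 147 of the 21898 genes in the deposited expression table matched: 78 CYP genes, 23 GST, 21 UGT, 21 SULT, 3 MGST and Por. Their transcripts were measured by RNA sequencing of total RNA from wild-type mouse ovaries that were taken at 14.5 days post coitum (dpc) and cultured for 3 days in serum-free medium. The 3 NAPQI libraries came from ovaries cultured with NAPQI (N-acetyl-p-benzoquinone imine), the reactive metabolite of acetaminophen, at 15 µM. The 3 control libraries came from ovaries given an equal volume of its solvent, ethyl acetate. Both groups are wild type, and both consist of whole organs that mix germ cells, pregranulosa cells, stroma, vessels and surface epithelium. The labels do not say whether each library was its own litter or culture. P-values therefore set the difference between the groups against the spread of these libraries within a group, and that spread may be only technical.

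Drug metabolism proceeds in steps that these families carry out. CYP enzymes of the endoplasmic reticulum receive electrons from NADPH through POR and insert oxygen into their substrates, and in liver CYP2E1, CYP1A2 and members of the CYP3A subfamily turn acetaminophen into NAPQI. UGT and SULT enzymes attach glucuronic acid or sulfate to the parent drug, which is the main route of its clearance. NAPQI itself is an electrophile that reacts with thiols, and GST enzymes speed its conjugation with glutathione. Most of these families are known best from liver, where many of their genes are transcribed at high levels.

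Library depth was 13879347 to 17258609 counted reads, and 14736 genes had enough counts to be tested. A member with 0 reads in a group can still have been present at up to 0.0652 counts per 1000000 counted reads (CPM) in the pooled NAPQI libraries and 0.0622 CPM in the pooled controls, the limit that a count of 0 allows for counting error only. Control replicate 3 stood apart on the first principal component, at -35.68 against -14.93 to 26.35 for the other libraries. Short genes took a larger share of its reads (Spearman correlation of deviation with gene length across genes -0.3, against -0.0986 to 0.167). On the first component the NAPQI libraries were at 8.802 to 26.35 and the controls at -35.68 to 3.887, without overlap. The ovarian identity of the libraries was checked with marker lists. The summed level of 12 pregranulosa markers was 2329 to 2651 CPM in NAPQI libraries and 2409 to 3004 CPM in controls, and that of 12 germ cell markers was 2263 to 2788 CPM with NAPQI and 2317 to 2568 CPM in controls. The 15 hepatocyte markers summed to 24.08 to 26.44 CPM in NAPQI libraries and 22.13 to 31.03 CPM in controls. Most of that was Trf, the transferrin gene, and the defining liver gene Alb was at 0.151 CPM in NAPQI libraries and 0.0635 CPM in controls. The 11 renal tubule markers summed to 18.47 to 25.82 CPM in NAPQI libraries and 24.95 to 25.86 CPM in controls, with Slc34a1 at 0 reads. Single controls also differed in some tissue markers. The surface epithelium marker Upk3b was at 193.5 CPM in control replicate 2, against 32.84 to 148.5 CPM in the other libraries. The erythroid marker Hba-a1 was at 103.7 CPM in control replicate 3, against 8.08 to 32.27 CPM in the others. Their part in the members' values was not tested.

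Cultured fetal ovaries transcribed a narrow part of the families. A member was counted as expressed when its mean in controls was at least 1 CPM, scaled by the trimmed mean of M-values (TMM), with a read in each control. By this rule 38 of 147 members, 25.9%, were expressed, against 64.4% of all genes in the table. A further 58 members had 0 reads in all 6 libraries. The families differed widely in how many of their genes were read. Of the 23 GST genes, 16 were expressed and 2 had no read, whereas of the 78 CYP genes 14 were expressed and 41 had no read. Of the 21 SULT genes 4 were expressed, of the 21 UGT genes 1, and of the 3 MGST genes 2. Por was expressed as well.

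Levels between genes are compared here as FPKM, reads per kilobase of gene length and per 1000000 counted reads, as the authors deposited them. The soluble GST genes held 85.6% of the summed FPKM of all members in controls, the MGST genes 6.15%, the CYP genes 5.08%, Por 2.1%, the SULT genes 1.01% and the UGT genes 0.0407%. By library the GST total was 1030, 1041 and 1048 FPKM with NAPQI and 1066, 920.0 and 1134 FPKM in controls. The NAPQI totals lay inside the control range and closer together than the controls. For CYP the totals were 65.5, 58.5 and 50.02 FPKM in NAPQI libraries and 67.7, 52.7 and 65.0 FPKM in controls. The UGT total was the lowest in every library, with 0.434, 1.02 and 0.629 FPKM with NAPQI and 0.716, 0.368 and 0.401 FPKM in controls. The plot of family totals shows these values by library.

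**Figure D1:**
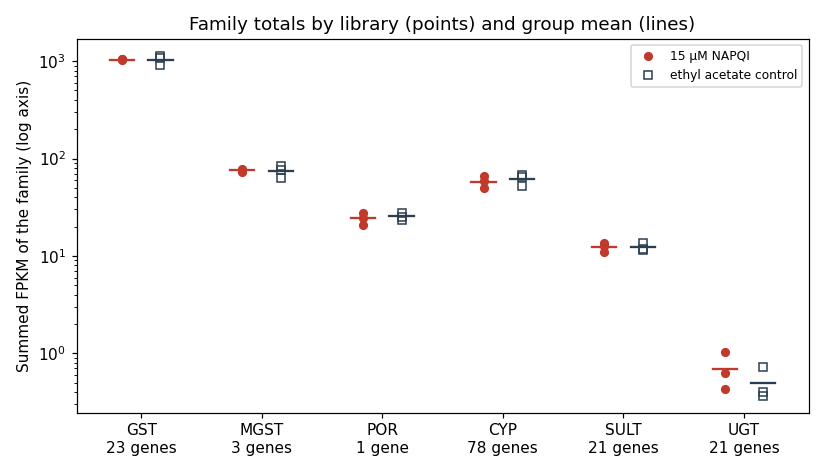
Summed FPKM of each family (log axis) in the 3 NAPQI libraries (filled circles) and the 3 controls (open squares), with group means as lines; the number of genes in each family stands under its name. GST lies near 1040 FPKM in both groups, and the groups overlap in all 6 families.

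Among the GST genes, the mu class on chromosome 3 led. Gstm2 (ENSMUSG00000040562, chromosome 3, 107889018 to 107893769, GRCm39, minus strand) was at 503, 492 and 536 FPKM in NAPQI libraries and at 485, 446 and 530.5 FPKM in controls. It ranked 32 of 21898 genes by mean control FPKM and alone gave 46.9% of the GST total. Gstm1 (chromosome 3, 107919571 to 107925289, minus strand) was at 251, 263 and 246 FPKM with NAPQI and at 280.2, 196 and 272 FPKM in controls, rank 88. The 7 Gstm genes lie side by side within 149.1 kb, and 6 of them were expressed. Their levels nevertheless spanned a wide range. In mean control FPKM with SD over 3 libraries, Gstm6 was at 59.95 ± 15.7, Gstm5 at 40.0 ± 6.7, Gstm7 at 31.7 ± 8.1 and Gstm4 at 8.0 ± 0.457. Gstm3, which lies between Gstm6 and Gstm2, was at 0.238 ± 0.248 and was not counted as expressed.

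The other GST classes followed at lower levels. Gstp1, the pi-class enzyme known for conjugating NAPQI (chromosome 19, 4085407 to 4087985, minus strand), was at 58.5, 67.3 and 54.2 FPKM in NAPQI libraries and at 59.1, 68.0 and 68.4 FPKM in controls. Gsta4, whose product conjugates the reactive aldehydes of lipid peroxidation, was at 29.6, 30.4 and 32.1 FPKM with NAPQI and 33.1, 34.8 and 40.4 FPKM in controls. All 3 NAPQI libraries were below all 3 controls for Gsta4, and the groups overlapped for Gstp1. Gstt1, of the theta class, was at 14.0, 12.9 and 10.03 FPKM with NAPQI and 16.9, 12.3 and 15.4 FPKM in controls. Gsto1, an omega-class enzyme with thioltransferase activity, averaged 13.8 ± 0.789 FPKM with NAPQI and 13.5 ± 0.677 FPKM in controls (SD, n = 3 each). Gstz1, which acts in tyrosine breakdown, averaged 11.3 ± 0.114 FPKM with NAPQI and 10.9 ± 0.402 FPKM in controls. Of the alpha class, Gsta3 and Gsta4 were expressed, and 3 further Gsta genes were not.

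The membrane-bound transferases and the electron donor were also well read. Mgst1, of the endoplasmic reticulum and outer mitochondrial membrane, was at 46.5, 44.8 and 43.1 FPKM in NAPQI libraries and 42.9, 35.7 and 44.4 FPKM in controls. Mgst3 was at 26.4, 32.6 and 33.8 FPKM with NAPQI and 33.6, 27.7 and 39.7 FPKM in controls. Mgst2 was nearly silent, with 0.353, 0.155 and 0.208 FPKM with NAPQI and 0.315, 0.203 and 0.214 FPKM in controls. The groups overlapped for all 3. Por (chromosome 5, 135698887 to 135764180, plus strand) was at 27.9, 24.6 and 20.7 FPKM in NAPQI libraries and 25.3, 23.6 and 27.4 FPKM in controls. Its level was thus above that of any single CYP member.

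Of the CYP genes that were read, several are known for acting on fatty acids and other endogenous lipids rather than on drugs. Cyp4f17 was at 12.1, 10.8 and 9.35 FPKM in NAPQI libraries and 12.8, 10.7 and 13.7 FPKM in controls. Cyp2d22 was at 12.6, 10.9 and 9.47 FPKM with NAPQI and 13.5, 9.81 and 12.2 FPKM in controls. Cyp4f13 was at 9.24, 9.27 and 6.92 FPKM with NAPQI and 10.96, 7.53 and 9.88 FPKM in controls. The NAPQI and control libraries overlapped for each of these 3 most abundant CYP genes. Members of the Cyp4f subfamily hydroxylate leukotrienes and long fatty acids, and 5 were expressed of the 8 that lie within 494.7 kb on chromosome 17. Cyp2j6, Cyp2s1 and the fatty acid hydroxylase gene Cyp4v3 had control means of 3.82, 3.62 and 2.46 FPKM. Cyp2r1, the vitamin D hydroxylase, and Cyp2u1, a fatty acid hydroxylase, were lower, at 0.601 and 0.721 FPKM.

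Of the CYP genes that make NAPQI in liver, Cyp2e1 was expressed at a low level, and Cyp1a2 and the Cyp3a genes were not counted as expressed. Cyp2e1 (chromosome 7, 140343652 to 140354900, plus strand) had 35, 22 and 9 reads in NAPQI libraries and 23, 23 and 13 reads in controls, which is 1.40 ± 0.775 CPM with NAPQI and 1.22 ± 0.22 CPM in controls (SD, n = 3 each). It passed the level of 1 CPM by little: NAPQI replicate 3 was at 0.622 CPM and control replicate 3 at 0.961 CPM. Cyp1a2 had 1, 0 and 1 reads with NAPQI and 3, 3 and 6 reads in controls. Cyp3a13 had 2, 1 and 4 reads with NAPQI and 6, 6 and 2 reads in controls. Cyp3a11, a main CYP3A enzyme of adult mouse liver, had 0 reads in all 6 libraries. None of the 9 Cyp3a, 15 Cyp2c, 8 Cyp4a, 5 Cyp2b or 4 Cyp2a genes was expressed, and no read in any library was seen for 7 of the Cyp3a, 11 of the Cyp2c, 5 of the Cyp4a, 4 of the Cyp2b and 3 of the Cyp2a genes.

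Conjugation with glucuronic acid or sulfate was thinly represented. Ugt1a7c was the UGT gene with the most reads, 5, 22 and 10 in NAPQI libraries and 27, 20 and 4 in controls. Ugt1a6a, whose product glucuronidates small phenols, had 8, 16 and 3 reads with NAPQI and 6, 1 and 2 in controls. Ugt1a6b had 0, 5 and 6 reads with NAPQI and 8, 2 and 0 in controls, and Ugt2b5 had 2, 2 and 0 with NAPQI and 0, 1 and 3 in controls. All 4 overlapped between the groups. Ugt1a1, the bilirubin glucuronosyltransferase, had 1 read in all, in NAPQI replicate 3, and Ugt1a9 had 0 reads in all 6 libraries. The 9 Ugt1a genes share their last exons, and 69.3% of the 50-base words in the longest Ugt1a7c transcript also occur in other genes, so Ugt1a counts are uncertain by gene. Among sulfotransferases, Sult5a1 was at 5.4, 5.58 and 4.47 FPKM with NAPQI and 5.38, 4.58 and 6.21 FPKM in controls. Sult1a1, the phenol sulfotransferase that acts on acetaminophen, was at 4.63, 4.24 and 3.44 FPKM with NAPQI and 4.11, 4.11 and 5.21 FPKM in controls. Sult6b1 was at 0.733, 0.301 and 0.461 FPKM with NAPQI and 0.549, 1.25 and 0.373 FPKM in controls. These 3 also overlapped between the groups.

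**Figure D2:**
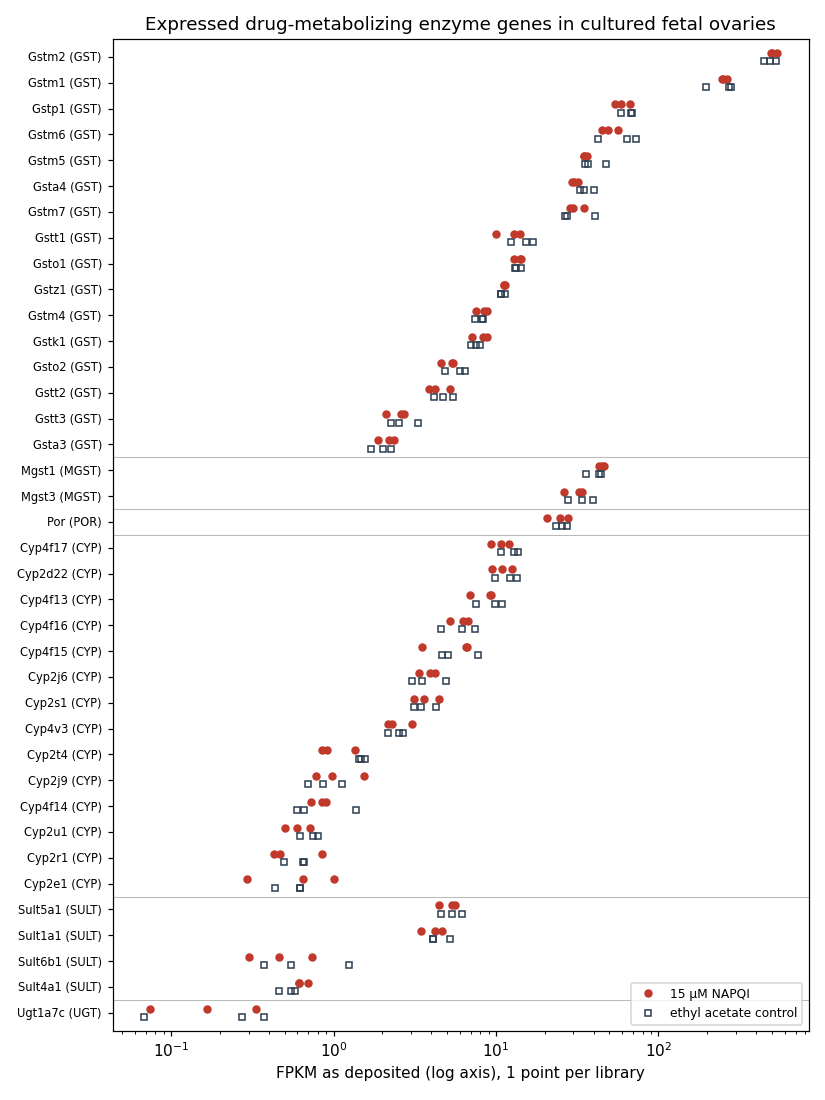
FPKM as deposited (log axis) of the 38 expressed members, 1 row per gene, grouped by family, with the 3 NAPQI libraries as filled circles above the 3 controls as open squares. Gstm2 and Gstm1 lie to the right of all others and Ugt1a7c lies at the left, and the groups overlap for all but Gsta4, Cyp2t4 and Sult4a1.

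Near-identical copies limit a few of these levels. By the transcripts of an older annotation, joined on gene identifiers, 5 of 42 tested members shared over 10% of the 50-base words of their longest transcript with another gene. Beside Ugt1a7c these were Gstp1 with 62.3%, shared with Gstp2, Cyp4f16 with 26.5%, Gstm1 with 23.1% and Gstm6 with 11.5%. The labels give neither the handling of reads that match several genes nor the strand setting of the counting. Thus Cyp2t4, Sult1a1, Sult2b1, Gstz1, Gsto1, Gsto2 and Ugt1a7c may include reads of a partner gene on the other strand. Each overlaps its partner by whole gene span, introns included. Sult5a1 overlaps Galnt2l in the same way, and Galnt2l had 0 reads in controls and 0 with NAPQI.

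CpG content upstream of the members, a feature their choice did not use, had a higher median in tested members than in members below the count filter or without reads. RefSeq promoter windows (GRCm38.p6) were found for 123 members, and the 250 bases before the first listed start were searched. The 36 tested members had a median of 4 CpG dinucleotides there, the 39 below the count filter had 1 and the 48 without reads had 1, against 6 for all 27025 genes of the promoter table. More than 5 CpG were seen in 16 of the 36, in 2 of the 39 and in 0 of the 48, where the highest count was 5. They were seen in 13638 of the 27025 genes of the promoter table. The read classes also differ in family, as 41 of 78 CYP genes but 2 of 23 GST genes had no read. Read class was not separated from family here. These CpG counts are a description, with no test. To show the range, the windows of 3 well-read members, Gstm2, Gstp1 and Por, and of the NAPQI-forming Cyp2e1 and Cyp3a11 are given 5′ to 3′ in the sense of the gene, with each CpG in capitals.
Gstm2, chr3:107986421-107986670, minus strand: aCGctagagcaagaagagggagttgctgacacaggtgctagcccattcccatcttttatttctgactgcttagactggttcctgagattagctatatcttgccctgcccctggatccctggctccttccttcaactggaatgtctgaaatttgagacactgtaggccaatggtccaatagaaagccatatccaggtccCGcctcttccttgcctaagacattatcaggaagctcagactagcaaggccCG
Gstp1, chr19:4037913-4038162, minus strand: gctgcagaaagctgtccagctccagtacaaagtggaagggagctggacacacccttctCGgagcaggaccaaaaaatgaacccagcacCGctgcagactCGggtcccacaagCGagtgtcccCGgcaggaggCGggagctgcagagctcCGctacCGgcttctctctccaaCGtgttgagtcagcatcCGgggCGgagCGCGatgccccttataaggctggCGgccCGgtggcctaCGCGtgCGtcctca
Por, chr5:135688895-135689144, plus strand: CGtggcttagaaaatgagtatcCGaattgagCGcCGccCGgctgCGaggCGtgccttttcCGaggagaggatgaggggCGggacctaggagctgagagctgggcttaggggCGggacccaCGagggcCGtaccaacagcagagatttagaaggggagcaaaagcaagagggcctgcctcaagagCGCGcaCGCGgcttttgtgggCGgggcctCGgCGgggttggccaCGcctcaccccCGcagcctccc
Cyp2e1, chr7:140763569-140763818, plus strand: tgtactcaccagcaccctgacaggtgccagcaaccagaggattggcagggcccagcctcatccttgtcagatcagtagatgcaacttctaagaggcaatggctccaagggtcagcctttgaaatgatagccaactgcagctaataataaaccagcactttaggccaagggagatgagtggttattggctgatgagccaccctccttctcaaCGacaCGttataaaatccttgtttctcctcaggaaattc
Cyp3a11, chr5:145879855-145880104, minus strand: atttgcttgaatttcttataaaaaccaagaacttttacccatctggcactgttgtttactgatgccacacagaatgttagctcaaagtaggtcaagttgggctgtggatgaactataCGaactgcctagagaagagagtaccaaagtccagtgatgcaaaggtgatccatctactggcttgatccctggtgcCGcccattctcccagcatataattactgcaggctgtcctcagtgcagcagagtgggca
The windows of Por and Gstp1 held 21 and 18 CpG, whereas that of Gstm2, the most abundant member, held 3, close to the 2 each of Cyp2e1 and Cyp3a11.

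**Figure D3:**
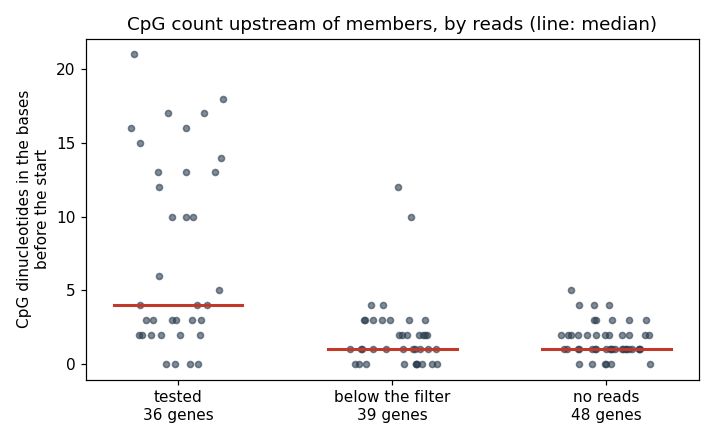
Number of CpG dinucleotides in the 250 bases before the start of members with a promoter window, by read class: 36 tested members, 39 below the count filter and 48 without reads, each point 1 gene, spread sideways at random, and the line the median. Tested members reach up to 21 CpG, and members without reads stay at 5 or fewer.

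Electrophiles such as NAPQI are known to activate the factor NRF2, which binds antioxidant response elements (ARE) near many GST genes. The ARE core TGACNNNGC, searched on both strands of the same 250 bases, occurred in 8.33% of the 36 tested members and in 10.1% of all genes of the promoter table. The matches were in Gsta3, Gstm5 and Mgst1, and are shown in capitals with 20 bases on each side, in the sense of the gene.
Gsta3, chr1:21240444-21240492, plus strand: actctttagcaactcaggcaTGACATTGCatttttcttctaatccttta
Gstm5, chr3:107895792-107895840, plus strand: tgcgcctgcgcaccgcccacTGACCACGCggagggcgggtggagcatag
Mgst1, chr6:138140451-138140499, plus strand: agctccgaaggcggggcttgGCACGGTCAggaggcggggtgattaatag
The Mgst1 match is on the opposite strand. The dioxin response core GCGTG, searched in the same way, occurred in 25.0% of tested members and 28.2% of all genes of the table. A match is a run of letters, and no match says only that these letters are not in this window.

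The comparison of NAPQI with the solvent asked which members changed. No member passed over all genes: 0 of 42 tested members had an adjusted p under 0.05 by the quasi-likelihood test of edgeR, against 0.0814% of all tested genes, and 0 did by DESeq2 (0.509% of all genes), limma-voom (0.00679%) or the exact test of edgeR (0.78%). An unadjusted p under 0.05 was seen for 2 of 42, Sult1c2 (higher) and Gsta4 (lower), against 9.24% of all tested genes, 4.21% higher and 5.03% lower. The groups did not overlap for 4 of 42, or 9.52%, against 14.4% of all tested genes. With NAPQI higher these were 2, against 7.26% of all tested genes, and with NAPQI lower 2, against 7.13%. All of these shares are near or below the background. Only members that passed the low-count filter are in these counts, and 105 were too low to be tested or had no read. Sult1c2 passed that filter only because of its NAPQI libraries, the group in which it was higher.

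The median log2 fold change (NAPQI over control) was -0.088, against -0.011 for all tested genes. Of the 42, 31 had a negative value, where 52.6% of all tested genes did, and 38, or 90.5%, had an absolute value under 0.3, where 81.4% of all tested genes did. It rested in part on single libraries: leaving out control replicate 3 gave -0.017, NAPQI replicate 3 -0.027, control replicate 1 -0.044 and control replicate 2 -0.144, and with each library's trend on gene length removed the median was -0.044. In bulk tissue, fewer cells of a type and less RNA per cell cannot be told apart. Among the cell type lists, the 10 interstitial markers summed to 3065 to 4306 CPM with NAPQI and 4173 to 4745 CPM in controls, with 5 of 10 at an unadjusted p under 0.05, all lower; their part in the members' values was not tested.

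**Figure D4:**
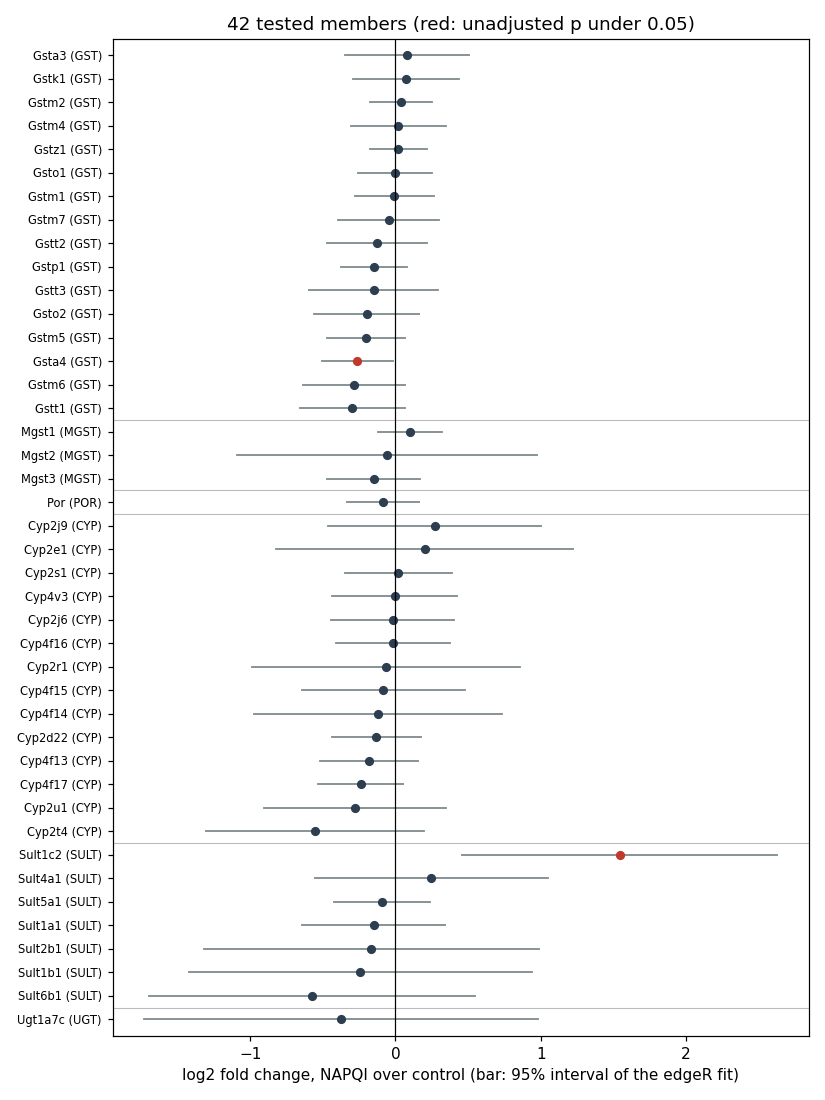
Log2 fold change of NAPQI over control for the 42 tested members, 1 row per gene, grouped by family, with the 95% interval of the edgeR fit as a bar. Most intervals cross 0; Sult1c2 and Gsta4 (red, unadjusted p under 0.05) do not, and neither has an adjusted p under 0.05.

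For the abundant GST genes the intervals were narrow. Gstm2 had a log2 fold change of 0.04 ± 0.10 (SE) with a 95% interval of -0.18 to 0.25 and an edgeR adjusted p of 0.926. Gstm1 was at -0.01 ± 0.13, with an interval of -0.28 to 0.26. Gstp1 was at -0.15 ± 0.10 (edgeR adjusted p = 0.671) and Gstt1 at -0.30 ± 0.17 (edgeR adjusted p = 0.593). The members with an ARE match were at 0.08 ± 0.20 for Gsta3, -0.20 ± 0.13 for Gstm5 and 0.10 ± 0.10 for Mgst1, none of them called (edgeR adjusted p = 0.924, 0.627 and 0.784). Of all 42 tested members, 19 had a 95% interval within 0.5 of 0 on the log2 scale, which is 1.41-fold, and 32 had one within 1. A p that misses the threshold does not show that the groups were alike, and for the other 10 a change of 1 on the log2 scale lay inside the interval.

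Gsta4 was the only GST gene whose groups did not overlap. It was at 37.3, 38.1 and 40.1 CPM in NAPQI libraries and at 41.9, 44.3 and 52.5 CPM in controls, a log2 fold change of -0.26 ± 0.11. The edgeR unadjusted p was 0.0378 and the adjusted p 0.515. Control replicate 3, the library richest in short genes, gave the highest value, and without it the log2 fold change was -0.16 (unadjusted p = 0.164). Gstm6 was at 97.7, 111 and 88.0 CPM with NAPQI and 146, 85.0 and 131 CPM in controls. Control replicate 2 lay below all NAPQI libraries for Gstm6, and without it the log2 fold change moved to -0.48 (edgeR adjusted p = 0.0958), against -0.28 ± 0.16 with all libraries (edgeR adjusted p = 0.602).

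Sult1c2, a sulfotransferase of phenolic compounds (ENSMUSG00000023122, chromosome 17, 54136665 to 54153367, minus strand), had the largest fold change of the tested members. It had 33, 29 and 36 reads in NAPQI libraries and 23, 6 and 6 reads in controls, or 2.05, 1.83 and 2.49 CPM with NAPQI and 1.34, 0.349 and 0.443 CPM in controls. All 3 NAPQI libraries lay above the highest control, which was control replicate 1. Control replicates 2 and 3 were under the minimum count of 10, so Sult1c2 passed the count filter only because of its NAPQI libraries. It was not counted as expressed in controls. Its p-value and lack of overlap carry that selection and are given as a description. The log2 fold change was 1.54 ± 0.50 with a 95% interval of 0.46 to 2.62, the edgeR unadjusted p 0.00885 and the adjusted p 0.397. It was not called in any of the 16 alternatives, with adjusted p from 0.124 to 0.9997, and the log2 fold change was between 1.21 and 2.42, the highest being without control replicate 1. In the authors' deposited table Sult1c2 had a fold change of 2.99 and an adjusted p of 0.549, and 0 of the 89 members listed there had an adjusted p under 0.05. The neighbouring Sult1c1 had 4, 12 and 2 reads with NAPQI and 0, 0 and 5 in controls, too few to be tested.

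The other 2 members without overlap were low. Cyp2t4 was at 1.49, 2.21 and 1.38 CPM in NAPQI libraries and 2.45, 2.39 and 2.66 CPM in controls (log2 fold change -0.56 ± 0.35, edgeR adjusted p = 0.630). It overlaps Egln2 on the other strand, which had 9207 reads in NAPQI libraries and 10111 in controls, so some of its reads may be those of Egln2. Sult4a1, known from brain, was at 1.74, 1.52 and 1.52 CPM with NAPQI and 1.46, 1.17 and 1.40 CPM in controls (log2 fold change 0.25 ± 0.37, edgeR adjusted p = 0.860).

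**Figure D5:**
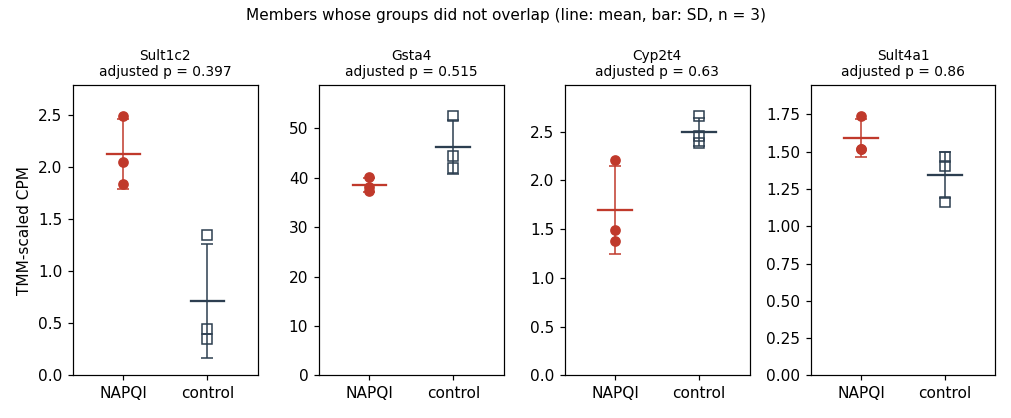
TMM-scaled CPM of the 4 members whose groups did not overlap, with the 3 NAPQI libraries (circles) left of the 3 controls (squares), the mean as a line and the SD as a bar (n = 3 each). Sult1c2 and Sult4a1 are higher with NAPQI and Gsta4 and Cyp2t4 lower, and the adjusted p over each panel ranges from 0.397 to 0.86.

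The CYP genes and Por had no member with an unadjusted p under 0.05. Por was at -0.09 ± 0.12 on the log2 scale (edgeR adjusted p = 0.844), with a 95% interval of -0.33 to 0.16. Cyp4f17 was at -0.24 ± 0.13 (edgeR adjusted p = 0.600), Cyp4f13 at -0.18 ± 0.16 (edgeR adjusted p = 0.723) and Cyp2d22 at -0.13 ± 0.14 (edgeR adjusted p = 0.793). All 5 tested Cyp4f genes had a negative value, from -0.24 to -0.02, as did 31 of the 42 tested members and 52.6% of all tested genes. The smallest edgeR unadjusted p among the Cyp4f genes was 0.102. Cyp2e1 was at 0.20 ± 0.47 (edgeR adjusted p = 0.918), with a 95% interval of -0.82 to 1.22. Without NAPQI replicate 1 the value for Cyp2e1 was -0.26. Mgst3 was at -0.15 ± 0.15, Mgst2 at -0.06 ± 0.48, Sult5a1 at -0.09 ± 0.15, Sult1a1 at -0.15 ± 0.23, Sult6b1 at -0.58 ± 0.52 and Ugt1a7c at -0.37 ± 0.63, with edgeR adjusted p from 0.747 to 0.981.

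Further genes of drug metabolism were followed in 5 lists, one of which also holds the member Gstk1. Of their 89 tested genes 0 were called by edgeR, against 0.0814% of all tested genes. At an unadjusted edgeR p under 0.05, 2 were higher and 5 lower, against 4.21% and 5.03% of all tested genes. The genes named below are therefore given as a description. The receptors and factors known to regulate these families in liver differed widely in level. Nr1i2 (PXR) averaged 0.661 CPM with NAPQI and 0.828 CPM in controls, Nr1i3 (CAR) had 1 read in all, and Hnf4a averaged 0.0691 CPM with NAPQI and 0.0194 CPM in controls. Rxra, the shared partner of many nuclear receptors, averaged 93.2 CPM with NAPQI and 86.2 CPM in controls, Nr3c1, the glucocorticoid receptor, 60.9 CPM with NAPQI and 65.9 CPM in controls, and Cebpa 12.3 CPM with NAPQI and 12.7 CPM in controls. Ahr averaged 24.3 ± 1.01 CPM with NAPQI and 23.0 ± 6.89 CPM in controls, and Nfe2l2, which encodes NRF2, averaged 115 ± 4.17 CPM with NAPQI and 105 ± 9.3 CPM in controls (SD, n = 3 each). Of 11 tested receptor genes, Ppara, the fatty acid sensor, was the one with an unadjusted p under 0.05 (log2 fold change 0.69 ± 0.28, edgeR adjusted p = 0.496).

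Among the other oxidising and reducing enzymes, 29 were tested. Cyp1a1, the close relative of Cyp1a2 and a target of the receptor AHR, was at 3.41, 3.23 and 3.18 CPM with NAPQI and 0.935, 1.46 and 0.591 CPM in controls (log2 fold change 1.69 ± 0.38, edgeR unadjusted p = 0.000744, adjusted p = 0.211). All 3 NAPQI libraries lay above all controls for Cyp1a1, as they did for 7.26% of all tested genes. Control replicate 3, with 8 reads, was under the minimum count of the filter. Cyp1a1 thus passed that filter only because of its NAPQI libraries, the group in which it was higher. Its p-value and lack of overlap carry that selection and are given as a description. Fmo1, a flavin monooxygenase, was at -0.81 ± 0.26, Adh1, an alcohol dehydrogenase, at -0.62 ± 0.25, Cbr3, a carbonyl reductase, at -0.51 ± 0.21 and Akr7a5, an aldehyde reductase, at -0.29 ± 0.10, with edgeR adjusted p from 0.392 to 0.493. Nqo1, a quinone reductase and NRF2 target, averaged 6.53 ± 1.54 CPM with NAPQI and 4.43 ± 1.27 CPM in controls (log2 fold change 0.55 ± 0.28, edgeR adjusted p = 0.553). Of 23 tested genes in the list of conjugation and related genes, Gstk1 among them, Papss2, which makes the sulfate donor, was at -0.45 ± 0.20 (edgeR adjusted p = 0.523). The 9 redox partners and the 17 transporters had no gene with an unadjusted p under 0.05. By mean control FPKM, the best-read genes of the lists were Nfe2l2 and Rxrb among receptors and Pgrmc1 and Cyb5r3 among redox partners. Akr1a1 and Aldh1a1 led the oxidising and reducing enzymes, and Abcc5 and Abcc10 the transporters. Clic1 and Ugp2 led the list of conjugation and related genes. The log2 fold changes of these best-read genes ran from -0.22 for Abcc10 to 0.12 for Nfe2l2, and none was called by edgeR (adjusted p from 0.625 to 0.944).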

How the data were processed

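RNA sequencing counts and FPKM values were deposited by the authors as 1 table for 6 libraries of cultured mouse ovaries, and the authors' deposited differential expression table was read for its fold changes, log2 fold changes, p-values and normalised count means (signal). The deposited FPKM equal counts per gene length and library total, as checked on the file. Gene coordinates are those of the table (GRCm39, aligned with HISAT2 and counted with HTSeq, per the submitters' processing notes). The deposited counts were filtered with filterByExpr (minimum count 10), scaled by TMM and tested with the quasi-likelihood test of edgeR 4.0.16 in R 4.3.3 over 14736 genes, adjusted by Benjamini-Hochberg (threshold 0.05). DESeq2 1.42.0, limma 3.58.1 (voom) and the exact test of edgeR were alternatives, beside other filters, scalings and each library left out. The fit was tested on simulated data. The main fit did not pair libraries by replicate number, and the labels do not say whether the numbers mark a pairing. The members, gene lists and tests were chosen with earlier results of these data known, and the 5 promoters shown after levels were seen. Members given by library were the 3 of highest mean control FPKM per family, those with an unadjusted p under 0.05, and a set of acetaminophen-related genes; Cyp2t4, Sult4a1, Gstm6 and Sult1c1 were added after their values were seen.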

Additional observations from a re-analysis of the deposited data

How the results depend on the processing

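In all 16 alternatives 0 members were called at an adjusted p under 0.05. With the threshold at 0.1, 0 were called with all libraries, while without control replicate 2 Gstm6 was at 0.0958. Over all genes, 48 were called without a filter, 75 with DESeq2, 115 with edgeR's exact test, 1 with limma-voom and 1 with the replicate block, against 12; leaving out 1 library gave 1 to 58. Deviations from the group means had correlations of 0.061, -0.178 and -0.0513 between same-numbered libraries. These are too few to show whether the replicate numbers pair the libraries. Members with an unadjusted p under 0.05 numbered 1 with library size alone, 1 with the length trend removed, and 1 to 7 with a library left out, 7 being without control replicate 2. Gstm1 turned positive under the upper quartile (0.004), library size alone (0.021), no filter (0.002), limma-voom (0.009), the replicate block (0.009) and the removed length trend (0.088). Leaving out 1 library turned the sign within -0.151 to 0.084 for Gstm1, -0.018 to 0.116 for Gstm2, -0.453 to 0.183 for Mgst2, -0.187 to 0.028 for Por, -0.193 to 0.034 for Sult5a1, -0.963 to 0.08 for Sult6b1, -1.041 to 0.088 for Ugt1a7c and -0.26 to 0.547 for Cyp2e1; the cause was not tested. Of 287 alternative values of 18 named members, 266 kept their direction and side of the threshold and 21 reversed. Expressed members numbered 43 at 0.5 CPM, 33 at 2 CPM, 30 at 1 FPKM and 36 to 38 with a library left out. Mgst2 has no value under the filter of 1 CPM. Depth limits the members below 1 CPM most, and family totals moved by less than the spread between libraries.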
